A study of Arabidopsis thaliana with 9 samples.

Results

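The comparison set the Arabidopsis thaliana lines iae1 and iae2 together against the line B1798 and kept the changes that both iae lines shared. It took all 9 arrays of the series, 6 from iae plants (3 of iae1, stock N5288, and 3 of iae2, stock N5289) and 3 from B1798 plants, for which the labels give no stock. Every line was in the Ler ecotype, was given 1% sucrose and was labelled growth stage 1.0, and the RNA came from crown, hypocotyl, cotyledons and apical meristem bud. The series text mentions a pool of 30 plants without naming the unit pooled. The labels state neither the mutation each iae line carries nor that B1798 is a control, and each iae genotype is represented by 1 line. Nor do they say whether the 3 arrays of a line hold RNA of separately grown plants, and the p-values below therefore reflect the spread among these arrays, part or all of which can be technical.

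The iae mutations are known for raising how often Ac, a maize transposon placed in the Arabidopsis genome, excises. A change present in both lines is a change seen in 2 stocks of that kind against the same B1798 arrays. Many of the transcripts described here belong to plant defence. In Arabidopsis, defensin genes such as PDF1.2 respond to jasmonate and ethylene, while chitinases, beta-1,3-glucanases and a set of lectin and lipid transfer protein genes respond to salicylate and pathogens. Class III peroxidases and pectin methylesterases are secreted enzymes that modify the cell wall.

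A probe set was tested where its signal reached the 40th percentile of its own array on at least 3 arrays, a level between 23.2 and 26.0 signal units. This kept 14404 of 22746 probe sets other than controls. Array medians lay between 35.9 and 38.5, and a common scaling before deposition had set the trimmed mean to 100 on every array. The 3'/5' signal ratio of GAPDH, a sign of RNA quality, averaged 2.14 ± 0.319 on the iae arrays (SD, n = 6) and 2.73 ± 0.422 on the B1798 arrays (SD, n = 3; exact permutation p = 0.0952, two-sided). For actin this ratio averaged 2.15 ± 0.261 on the iae arrays and 2.64 ± 0.175 on the B1798 arrays (exact permutation p = 0.0476, the smallest possible being 0.0238). Over the 5 quality measures the actin ratio had the lowest p and no adjustment for their number was made. The ratios were lower in iae2 than in iae1, with GAPDH at 1.86 ± 0.126 in iae2 and 2.42 ± 0.0875 in iae1 (SD, n = 3 each).

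The pooled iae lines differed from B1798, with both line means on the same side, at 1438 probe sets, of which 802 were higher and 636 lower. In the pooled contrast, the mean of the 2 line means minus B1798, limma called 1574 probe sets at an adjusted p below 0.05, which is 10.9% of those tested. The 1438 calls with both line means on the same side of B1798, named shared calls here, made up 9.98% of the tested probe sets, with 5.57% higher and 4.42% lower. The remaining 136 called probe sets had line means on opposite sides of B1798. Over all 14404 tested probe sets, called or not, 9074 had both line means on the same side of B1798, which both lines are compared with. At an unadjusted p below 0.05 the pooled contrast held 3529 probe sets. In bulk tissue, fewer cells of a type and less RNA per cell cannot be told apart, and this holds for every change below.

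Most shared changes were small. The median pooled log2 change was 0.44 among the shared rises and -0.37 among the shared falls, against 0.0064 over all tested probe sets. A change of at least 1.5-fold in each line was reached by 101 shared calls, 71 higher and 30 lower, which is 0.701% of the tested probe sets. A change of at least 2-fold in each line was reached by 21, of which 11 were higher and 10 lower. All 6 iae arrays lay above or all below the 3 B1798 arrays at 1376 tested probe sets, or 9.55%, and 910 of the shared calls were among them.

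The changes were larger in iae2 than in iae1. Against B1798 alone, 7.21% of the tested probe sets were called in iae1 and 17.8% in iae2, while iae2 against iae1 gave 19.6%. These contrasts share arrays, so the counts are not independent. Of the 1438 shared calls, 419 were called in each line alone, 754 in iae2 only, 218 in iae1 only and 47 in neither line alone. The change itself differed between iae2 and iae1 at 619 shared calls, being larger in iae2 at 493 and larger in iae1 at 126. At the other 819 this difference was not called. Among the shared rises the median log2 change was 0.54 in iae2 and 0.33 in iae1, and among the shared falls it was -0.43 in iae2 and -0.31 in iae1.

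**Figure D1:**
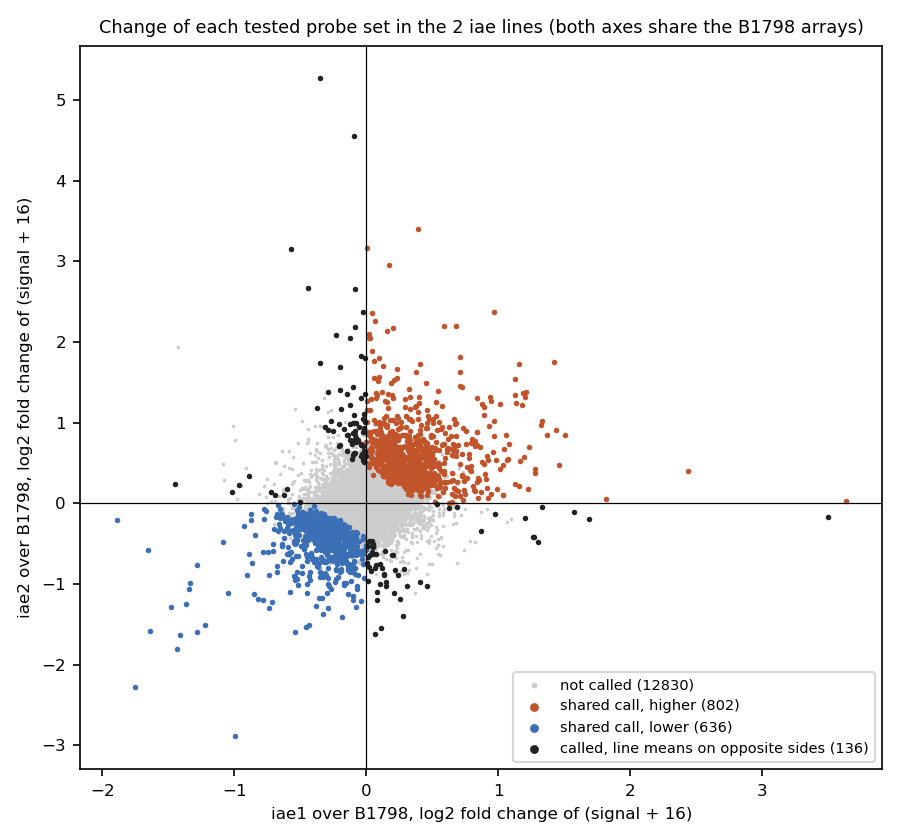
Each point is a tested probe set, with its log2 fold change of (signal + 16) in iae1 over B1798 on the x axis and in iae2 over B1798 on the y axis. The 802 shared rises lie at the upper right and the 636 shared falls at the lower left, many of them close to an axis, and the 136 called probe sets with opposite line means lie at the upper left and lower right.

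Of the 14 leading shared rises, PDF1.2b and PDF1.2, ranked 1 and 4, were defensin genes. PDF1.2b gave signals of 294.3, 404.0 and 546.5 in iae1 and 464.3, 440.9 and 643.2 in iae2, against 115.3, 165.0 and 144.9 in B1798. The leading rises and falls were chosen among calls with no overlap between iae and B1798 arrays. Their separation on every array was thus set by the rule. For PDF1.2b the pooled log2 change was 1.58 ± 0.16 (SE, adjusted p = 7.46e-06). The probe set of PDF1.2b can cross-hybridise, so its signal may include close relatives such as PDF1.2. PDF1.2 has a probe set of its own, which gave 72.9, 66.4 and 73.2 in iae1 and 222.5, 197.1 and 218.0 in iae2, against 25.8, 27.2 and 32.0 in B1798. The 3 lines did not overlap, with iae2 highest and B1798 lowest. The pooled log2 change was 1.67 ± 0.08 (adjusted p = 5.69e-09), and iae2 exceeded iae1 by 1.40 (adjusted p = 5.8e-08).

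Of 8 tested defensin and thionin genes, 5 rose and 1 fell in both lines, with a median pooled log2 change of 0.45. Over all 7787 tested genes, 410 rose (5.27%), 315 fell (4.05%) and the median was 0.0087. LCR68, another defensin-like gene, averaged 652 ± 28.6 in iae1 and 1037 ± 22.7 in iae2, against 636 ± 43.8 in B1798 (SD, n = 3 each). Its pooled log2 change of 0.37 (adjusted p = 0.00151) came almost entirely from iae2, since iae1 differed from B1798 by 0.04 (adjusted p = 0.827). The fall was THI2.1, a thionin gene that responds to jasmonate in seedlings, with 316 ± 13.9 in iae1 and 176 ± 12.3 in iae2, against 384 ± 14.05 in B1798. Its pooled log2 change was -0.67 ± 0.07 (adjusted p = 8.22e-06). Of the other 2 members without a shared call, both named after their values were seen, PDF1.4 averaged 577 ± 53.1 in iae1 and 278 ± 32.3 in iae2, against 526 ± 55.9 in B1798, a log2 change of 0.13 in iae1 (adjusted p = 0.501) and of -0.89 in iae2 (adjusted p = 1.38e-05). LCR69 changed by 0.03 on the pooled log2 scale (adjusted p = 0.861). None of the 4 tested jasmonate genes had a shared call, and OPCL1, a ligase of jasmonate synthesis and the brightest of them, changed by -0.001 ± 0.13 (SE, log2).

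RALFL27, which encodes a secreted peptide of the RALF family of growth-regulating signals, was close to 0 in B1798. Its signals were 30.0, 19.8 and 29.4 in iae1 and 26.8, 29.8 and 32.8 in iae2, against 3.4, 1.1 and 2.4 in B1798. The iae lines overlapped each other and lay far above B1798, at a pooled log2 change of 1.26 ± 0.13 (adjusted p = 1.05e-05). All B1798 signals and the iae1 signal of 19.8 lay below the filter level, so this probe set was dim. Over the other settings that tested it, the call was kept but the pooled log2 change ran from 0.47 to 2.35. Of 10 tested RALF and other small peptide genes, 3 rose and 1 fell (median 0.15), where over all tested genes 5.27% rose and 4.05% fell. RALFL18 was the fall, with a pooled log2 change of -0.51 ± 0.12 (adjusted p = 0.00971). RALFL32 rose by 0.35 ± 0.07 in the pooled contrast (adjusted p = 0.00597). This rise was 0.52 in iae2 and 0.17 in iae1, where it alone was not called (adjusted p = 0.278).

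Cell wall enzymes moved in both directions. AT4G26010, a class III peroxidase gene, gave 82.3, 70.1 and 71.3 in iae1 and 91.8, 98.4 and 78.8 in iae2, against 33.6, 21.0 and 22.9 in B1798 (pooled log2 change 1.23 ± 0.11, adjusted p = 2.05e-06). AT2G37130, which encodes peroxidase 21, went the other way, with 431.8, 451.6 and 406.3 in iae1 and 336.8, 314.8 and 301.7 in iae2, against 739.5, 762.5 and 751.7 in B1798. Here all 3 lines stood apart and iae2 was lowest. Its pooled log2 change was -0.99 ± 0.06 (adjusted p = 9e-08). PRX52 and Prx37, peroxidases linked in Arabidopsis to cell wall lignin and growth, fell by 0.99 and 0.97 on the pooled log2 scale (adjusted p = 1.09e-06 and 3e-05), and each fell further in iae2 than in iae1 by 1.07 (adjusted p = 8.8e-07 and 2.16e-05). Of 5 tested peroxidase genes listed by symbol 3 fell and none rose (median -0.33), where over all tested genes 5.27% rose and 4.05% fell. This list does not stand for the family. Of the peroxidase genes outside it that are described by locus here and below, AT4G26010, AT4G30170 and AT5G17820 rose and AT2G37130 fell. PRXR1, the third fall, lost its call without B1798 replicate 2 or B1798 replicate 3 (adjusted p up to 0.0588).

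Pectin methylesterase family genes gave a leading rise and a leading fall. AT5G04960, a gene of the pectin methylesterase and inhibitor family, averaged 58.3 ± 10.2 in iae1 and 59.8 ± 3.51 in iae2, against 26.2 ± 10.7 in B1798 (pooled log2 change 0.86 ± 0.14, adjusted p = 0.000946). ATPMEPCRD, a pectin methylesterase gene, gave 65.3, 52.4 and 60.2 in iae1 and 42.5, 31.0 and 31.8 in iae2, against 103.4, 118.1 and 106.4 in B1798. The fall was -1.02 ± 0.10 (adjusted p = 5.49e-06) and was deeper in iae2. Of 15 tested cell wall polysaccharide and pectin genes, 2 rose and 2 fell (median -0.012), and of 21 xyloglucan enzyme and expansin genes, 3 rose and 1 fell (median 0.0088). Across all tested genes the shares were 5.27% higher and 4.05% lower. No call on a xyloglucan enzyme or expansin gene was kept under every array left out. EXPA4 lost its call without 1 array, B1798 replicate 3 (adjusted p = 0.0535), XTH32 without each of 3 (highest adjusted p 0.0804, without B1798 replicate 2), EXLA1 without each of 7 (0.144, without B1798 replicate 2) and EXPA20 without each of 7 (0.244, without B1798 replicate 3). In the pectin list the call on ATPMEPCRD was kept with every array left out, whereas CSLA03 and CSLC04 each lost theirs without any of 6 arrays (highest adjusted p 0.145 and 0.166, both without B1798 replicate 2) and COB without any of 8 (0.124, without B1798 replicate 3).

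Several metabolic genes rose in both lines. ICL, an isocitrate lyase that works in the glyoxylate cycle during the conversion of seed oil to sugar, gave 69.0, 67.1 and 55.6 in iae1 and 44.0, 34.2 and 39.7 in iae2, against 10.9, 25.6 and 6.7 in B1798. The pooled log2 change was 1.17 ± 0.16 (adjusted p = 0.00013). Of the other 2 tested genes of seed oil use, the triacylglycerol lipase SDP1 fell by 0.31 (adjusted p = 0.0467), a call lost when any of 7 arrays was left out (adjusted p up to 0.182, without B1798 replicate 2). AT1G22440, of the alcohol dehydrogenase family, was at 98.9, 119.8 and 108.2 in iae1 and 124.2, 104.0 and 104.3 in iae2, against 59.7, 45.9 and 43.4 in B1798 (0.94 ± 0.10, adjusted p = 1.13e-05). AT2G21045, an arsenate reductase with a rhodanese domain, was at 148.0, 153.6 and 150.8 in iae1 and 140.5, 145.2 and 128.3 in iae2, against 80.5, 76.9 and 73.9 in B1798 (0.78 ± 0.07, adjusted p = 3.47e-06). For both genes the iae lines overlapped and their difference was not called.

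AT4G15390, an acyltransferase gene of the HXXXD type, averaged 191 ± 36.1 in iae1 and 205 ± 74.2 in iae2, against 89.0 ± 5.63 in B1798 (0.99 ± 0.16, adjusted p = 0.00072). AT1G18980, a germin-like protein gene, averaged 164 ± 14.1 in iae1 and 126 ± 9.32 in iae2, against 69.2 ± 6.54 in B1798 (0.91 ± 0.08, adjusted p = 3.1e-06). AT5G63990, of the inositol monophosphatase family, was dim at 25.7 ± 10.0 in iae1 and 31.7 ± 8.02 in iae2, against 8.97 ± 4.86 in B1798 (0.84 ± 0.17, adjusted p = 0.00438). The B1798 level of this gene lay below the filter level.

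A further 3 rises were larger in iae1 than in iae2. AT3G25930, of the universal stress protein family, averaged 85.9 ± 11.2 in iae1 and 63.5 ± 7.81 in iae2, against 24.6 ± 1.85 in B1798 (pooled log2 change 1.14 ± 0.10, adjusted p = 1.93e-06). AT5G66985 averaged 103 ± 16.2 in iae1 and 59.3 ± 5.58 in iae2, against 26.0 ± 6.36 in B1798 (1.18 ± 0.11, adjusted p = 5.37e-06). AT4G39675 averaged 77.1 ± 3.76 in iae1 and 49.1 ± 8.34 in iae2, against 20.1 ± 1.91 in B1798 (1.11 ± 0.10, adjusted p = 3.27e-06). On all B1798 arrays AT4G39675 lay below the filter level, so it passed the filter through the iae arrays alone. AT5G66985 is known among Arabidopsis genes induced by low oxygen.

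A list of low-oxygen genes by locus, drawn up after AT5G66985 had been seen and leaving it out, held 14 tested genes, of which 5 rose and 1 fell (median 0.13). Of all tested genes 5.27% rose and 4.05% fell, but this short list was chosen with the leading rises known. Its count therefore cannot serve as support for a low-oxygen response. AT4G10270, of the wound-responsive family, gave 166.0, 155.2 and 171.0 in iae1 and 115.3, 98.1 and 111.0 in iae2, against 69.2, 69.9 and 70.1 in B1798 (pooled log2 change 0.80 ± 0.08, adjusted p = 4.44e-06). AT3G03270, a universal stress protein gene, rose by 0.86 in iae2 and by 0.22 in iae1, where it alone was not called (adjusted p = 0.193). PDC2, a pyruvate decarboxylase of fermentation, averaged 137 ± 24.2 in iae1 and 191 ± 24.3 in iae2, against 155 ± 17.2 in B1798 and had no call (adjusted p = 0.793).

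**Figure D2:**
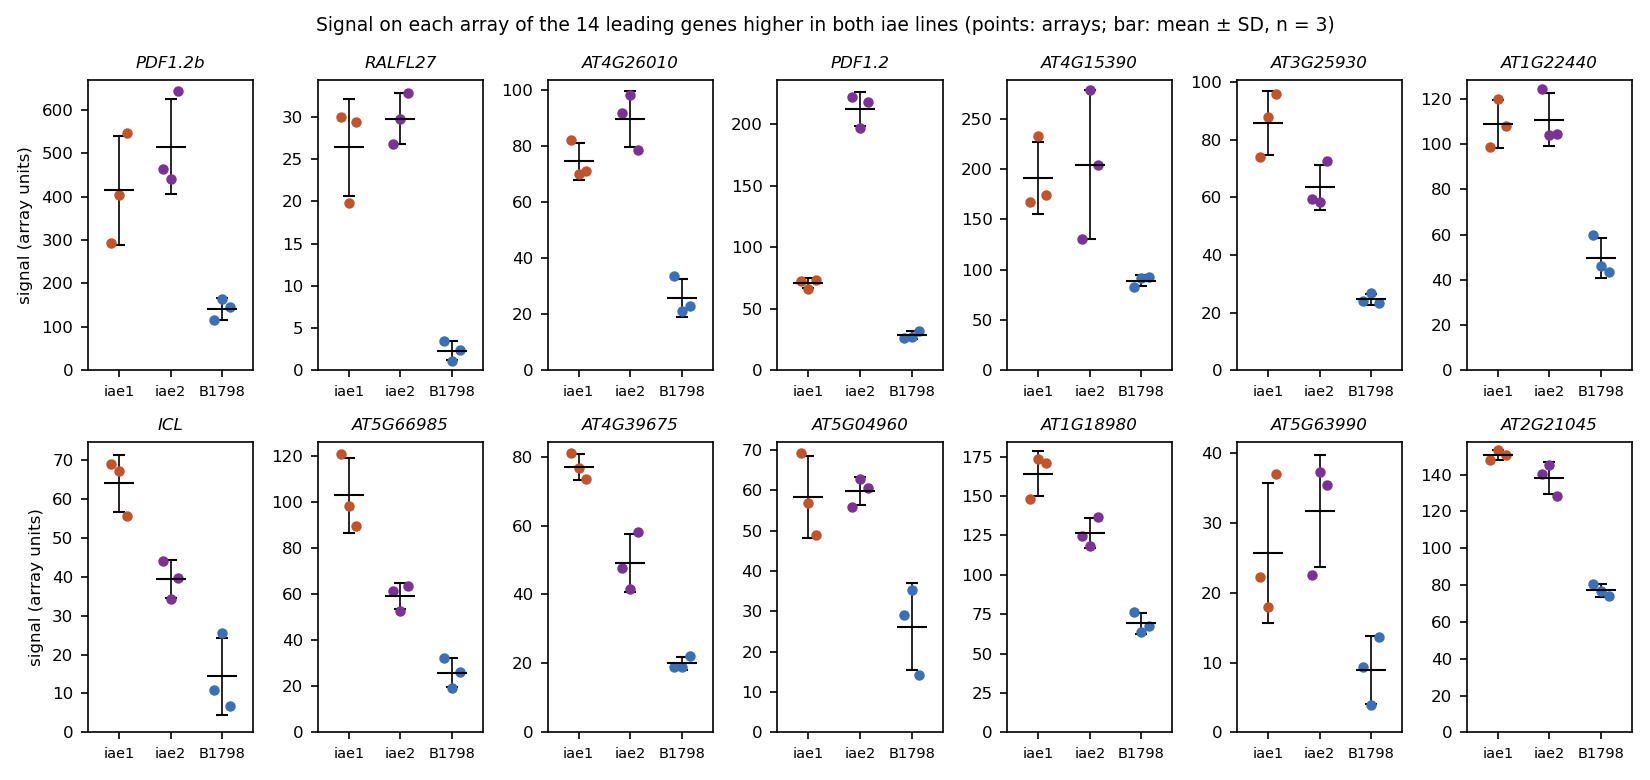
Signal in array units (y axis, from 0) of the 14 leading shared rises on every array of iae1, iae2 and B1798, with points for arrays and bars for the mean ± SD of 3 arrays. By the rule that chose these genes, all 6 iae points lie above all 3 B1798 points in each panel. PDF1.2 shows iae2 far above iae1.

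The leading shared falls included several genes of pathogen defence. AT5G03350, which encodes a protein with a legume lectin domain, gave 32.9, 50.5 and 51.1 in iae1 and 58.3, 34.8 and 48.0 in iae2, against 165.2, 167.1 and 181.3 in B1798. AT5G55450, of the lipid transfer protein family, gave 52.8, 59.0 and 37.2 in iae1 and 65.5, 62.5 and 48.9 in iae2, against 160.9, 171.0 and 164.6 in B1798. Both iae lines lay at similar levels far below B1798. The pooled log2 change was -1.61 ± 0.12 for AT5G03350 (adjusted p = 6.19e-07) and -1.38 ± 0.11 for AT5G55450 (adjusted p = 7.73e-07), with no called difference between the iae lines.

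AT4G16260, a beta-1,3-glucanase gene, gave 492.5, 527.3 and 487.8 in iae1 and 404.4, 368.2 and 380.7 in iae2, against 806.9, 918.3 and 971.2 in B1798 (pooled log2 change -1.002 ± 0.07, adjusted p = 2.23e-07). The chitinase gene AT2G43570, listed as CHI, gave 63.6, 59.8 and 58.5 in iae1 and 42.5, 73.4 and 46.7 in iae2, against 105.6, 114.2 and 115.2 in B1798 (-0.81 ± 0.11, adjusted p = 0.000228). AT5G52760, with a heavy metal binding domain, averaged 29.1 ± 4.54 in iae1 and 27.1 ± 8.31 in iae2, against 54.0 ± 8.55 in B1798 (-0.67 ± 0.13, adjusted p = 0.00287). The glucanase and chitinase genes fell on the same arrays on which PDF1.2 and PDF1.2b rose.

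A list of salicylate and systemic resistance genes by locus, drawn up after these falls had been seen and leaving 4 of them out, held 6 tested genes. None rose and 2 fell, with a median of -0.22, where over all tested genes 5.27% rose and 4.05% fell. Because this short list was chosen with the leading falls known, its count cannot serve as support for them. AT3G60420 averaged 30.3 ± 4.91 in iae1 and 22.3 ± 1.41 in iae2, against 47.1 ± 2.36 in B1798 (pooled log2 change -0.59 ± 0.10, adjusted p = 0.0016). The call on AT1G21520 (-0.48, adjusted p = 0.0301) was lost when any of 5 arrays was left out (adjusted p up to 0.145, without B1798 replicate 1). WRKY53, a WRKY transcription factor gene of senescence and defence, was no call (-0.26, adjusted p = 0.106), and none of the 6 tested WRKY genes had a shared call. Of 3 tested genes chosen by name for pathogenesis-related and salicylate-linked defence, GRX480 alone was called lower (-0.36, adjusted p = 0.0347), and its call was lost when any of 6 arrays was left out (adjusted p up to 0.203, without B1798 replicate 2).

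M10, a late embryogenesis abundant gene, gave 15.7, 16.3 and 17.9 in iae1 and 12.5, 17.5 and 4.1 in iae2, against 67.9, 70.5 and 45.0 in B1798. It lay below the filter level on all iae arrays and above it on all B1798 arrays, so it passed the filter through B1798 alone. Its pooled log2 change was -1.37 ± 0.16 (adjusted p = 3.44e-05). Of 10 tested cold, drought and late embryogenesis abundant genes, 1 rose and 3 fell (median 0.14), against 5.27% and 4.05% of all tested genes. The rise was DI21, a drought-induced gene, at 302 ± 16.2 in iae1 and 369 ± 20.3 in iae2, against 217 ± 15.3 in B1798 (0.59 ± 0.07, adjusted p = 4.17e-05). The cold-regulated dehydrin gene COR47 fell by 0.33 (adjusted p = 0.00787), a call not kept without B1798 replicate 2 (adjusted p = 0.0523).

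BGLU28, a beta-glucosidase gene that in Arabidopsis responds to sulphur deficiency, gave 59.9, 53.5 and 51.7 in iae1 and 137.8, 141.4 and 120.9 in iae2, against 239.7, 225.5 and 163.8 in B1798. It fell further in iae1 than in iae2, the difference being 1.07 (adjusted p = 1.12e-05). The pooled log2 change was -1.12 ± 0.10 (adjusted p = 3.76e-06). Of 14 tested beta-glucosidase genes none rose and 2 fell (median -0.15), where over all tested genes 5.27% rose and 4.05% fell. BGLU45, the other fall, changed by -0.88 in iae2 and by -0.09 in iae1.

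WAG2, an AGC kinase gene that acts on auxin transport, averaged 37.3 ± 8.16 in iae1 and 35.3 ± 1.54 in iae2, against 63.97 ± 13.7 in B1798 (pooled log2 change -0.60 ± 0.12, adjusted p = 0.00447). AT1G34300, a lectin receptor kinase gene, averaged 84.3 ± 8.08 in iae1 and 81.9 ± 15.2 in iae2, against 135 ± 16.9 in B1798 (-0.61 ± 0.10, adjusted p = 0.00129). AT1G11210, AT1G70270 and AT1G55265 were the other leading falls, by 0.73, 0.76 and 0.57 on the log2 scale (adjusted p = 2.92e-05, 0.00107 and 0.000103), and for these the difference between the iae lines was not called. None of the 7 tested genes of auxin response and transport had a shared call, and WES1, an enzyme that conjugates auxin and the brightest of them, changed by -0.20 ± 0.07 (adjusted p = 0.0661).

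**Figure D3:**
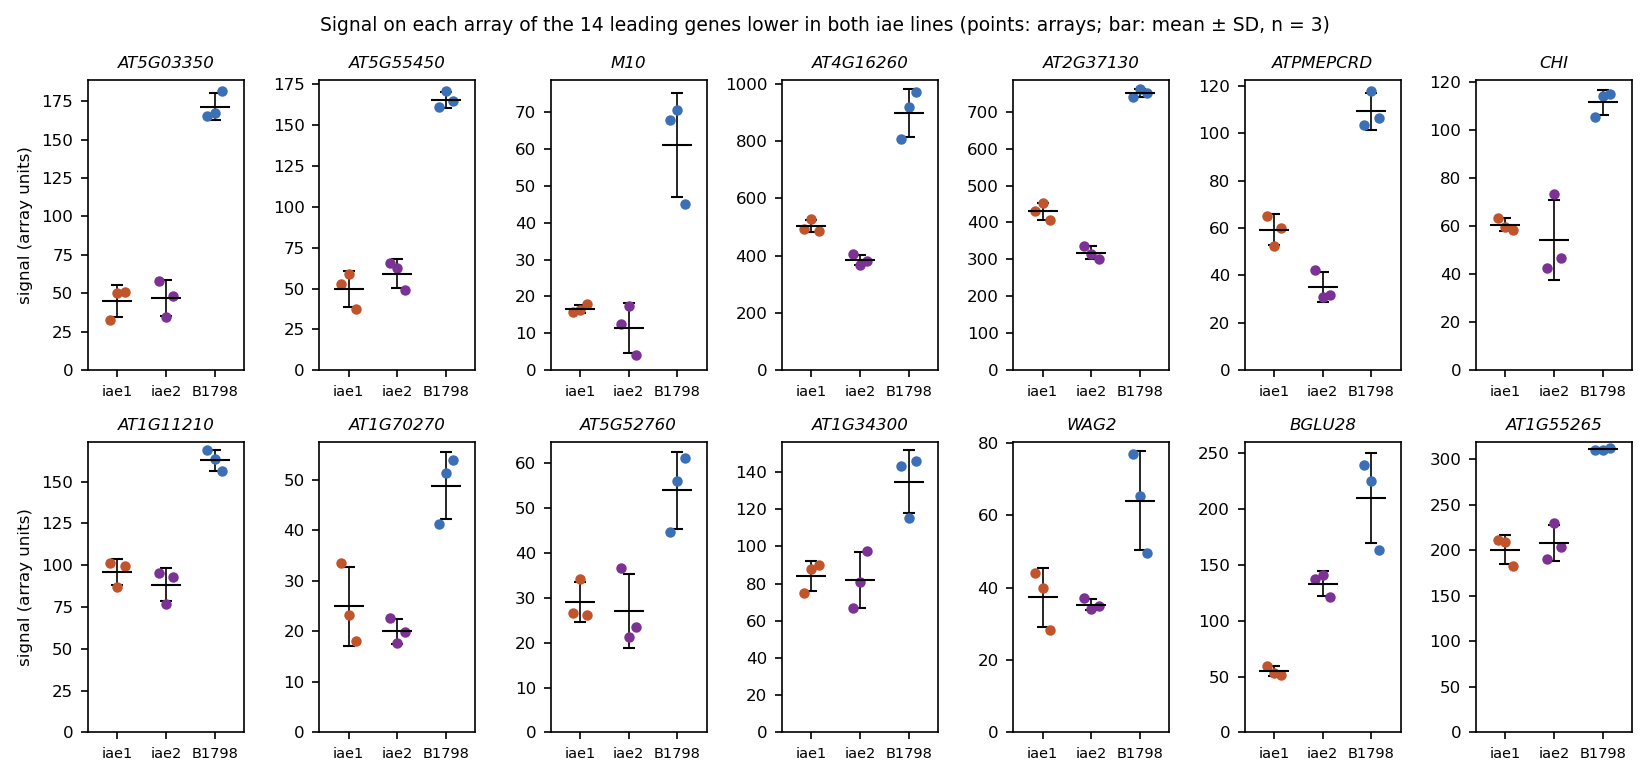
Signal in array units (y axis, from 0) of the 14 leading shared falls on every array of iae1, iae2 and B1798, with points for arrays and bars for the mean ± SD of 3 arrays. By the rule that chose these genes, all 6 iae points lie below all 3 B1798 points in each panel. BGLU28 shows iae1 far below iae2.

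The 2 probe sets with the largest change in both lines among those with no gene name in the annotation used were 266385_at and 247718_at. Probe set 266385_at gave 166.7, 140.5 and 141.9 in iae1 and 96.6, 92.6 and 107.4 in iae2, against 548.2, 567.8 and 509.5 in B1798 (pooled log2 change -2.02 ± 0.08, adjusted p = 5.05e-10). Probe set 247718_at fell by 1.62 ± 0.07 (SE, adjusted p = 1.83e-09). The rises of this kind, 247871_at and 258905_at, changed by 1.30 ± 0.13 and 1.20 ± 0.17 (adjusted p = 8.48e-06 and 0.000191), and no B1798 array gave them a signal above 22.1. Both rises passed the filter through the iae arrays alone. Unnamed probe sets made up 665 of the 1438 shared calls and 6259 of the 14404 tested probe sets.

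Most tested genes for enzymes that conjugate small molecules had no shared call, and most of the calls made were rises. Over all tested genes 5.27% rose and 4.05% fell. Of 10 tested glutathione S-transferase genes, 3 rose and none fell (median 0.29). GSTU22 gave 36.8, 35.9 and 35.5 in iae1 and 38.3, 29.7 and 31.0 in iae2, against 12.6, 17.8 and 19.3 in B1798 (pooled log2 change 0.64 ± 0.11, adjusted p = 0.00155). This gene lay below the filter level on all B1798 arrays and passed the filter through the iae arrays alone. GSTU26 averaged 149 ± 25.3 in iae1 and 114 ± 14.8 in iae2, against 78.3 ± 4.61 in B1798 (0.63 ± 0.10, adjusted p = 0.000722). GSTU20 was called at an adjusted p of 0.0471, which was 0.171 without B1798 replicate 1 and passed 0.05 when any of 7 arrays was left out.

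Of 30 tested UDP-glycosyltransferase genes, 4 rose and 1 fell (median 0.066), where over all tested genes 5.27% rose and 4.05% fell. UGT88A1 rose by 1.00 in iae2 and by 0.13 in iae1, while UGT72E2, which glycosylates lignin precursors, rose by 0.52 in iae2 and by 0.39 in iae1. UGT73B5 fell by 0.59 ± 0.11 on the pooled log2 scale (adjusted p = 0.00245). Of 20 tested redox and detoxification genes, 2 rose and 4 fell (median -0.014), the clearest fall being GR1, a glutathione reductase, at 234 ± 11.4 in iae1 and 224 ± 8.46 in iae2, against 314 ± 28.6 in B1798 (-0.42 ± 0.07, adjusted p = 0.001). MSRB6, a methionine sulfoxide reductase, rose by 0.96 in iae2 and by 0.10 in iae1. Of 9 tested cytochrome P450 genes 1 fell and none rose (median -0.19), and of 4 glucosinolate genes 1 fell, AOP1, by 0.40 ± 0.07 (adjusted p = 0.00148).

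Of 66 tested genes of the plastid genome 6 rose and 1 fell, or 10.6% in all, around a median of -0.029. Over all tested genes 5.27% rose and 4.05% fell, so this share was near the background. The subunit gene psbK of photosystem II averaged 731 ± 48.4 in iae1 and 1046 ± 80.1 in iae2, against 633 ± 35.5 in B1798 (pooled log2 change 0.46 ± 0.07, adjusted p = 0.000509). The photosystem I gene psaA averaged 200 ± 62.6 in iae1 and 362 ± 89.9 in iae2, against 147 ± 31.9 in B1798 (0.79 ± 0.17, adjusted p = 0.00653). The assembly factor gene ycf3 rose by 0.66 ± 0.10 (adjusted p = 0.000623). Plastid transcripts are known to carry few of the poly(A) tails that the oligo-dT primer binds, and the 3'/5' ratios differed between these arrays. With the GAPDH ratio as a covariate psbK changed by 0.52 and kept its call (adjusted p = 0.0241), psaA changed by 0.80, as much as without it, but was not called (adjusted p = 0.194), and ycf3 changed by 0.38 and was not called (adjusted p = 0.225).

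Of 8 tested mitochondrial genome genes 2 fell and none rose (median -0.053), where over all tested genes 4.05% fell and 5.27% rose. The cytochrome oxidase gene cox1 changed by -0.63 in iae2 and by -0.02 in iae1, and its pooled adjusted p of 0.00789 was 0.0549 without B1798 replicate 3. The call on cox2 (adjusted p = 0.0352) was lost when any of 6 arrays was left out (adjusted p up to 0.0988, without B1798 replicate 1). None of the 9 tested nuclear photosystem genes and none of the 3 Calvin cycle genes had a shared call, with LHCB4.1, an antenna protein gene, at 3931 ± 95.2 in iae1 and 3651 ± 412 in iae2, against 4079 ± 321 in B1798 (adjusted p = 0.456).

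Lists of silencing, repair and cell division genes were short, and their calls were too few to set against the 5.27% of genes that rose and the 4.05% that fell. Of 5 tested genes of DNA methylation and silencing, NRPD7 rose, a subunit gene of the polymerases of RNA-directed DNA methylation, at 36.1 ± 5.76 in iae1 and 30.6 ± 1.05 in iae2, against 20.3 ± 1.01 in B1798 (pooled log2 change 0.44 ± 0.11, adjusted p = 0.0142). Without B1798 replicate 2 its adjusted p was 0.0529. NRPD7 lay below the filter level on all B1798 arrays and passed the filter through the iae arrays alone. None of the 7 tested genes of DNA repair and replication and none of the 7 cell cycle genes had a shared call. RAD4, of nucleotide excision repair, changed by -0.12 ± 0.10 (adjusted p = 0.517), and SIM, a cell cycle inhibitor gene, by 0.08 ± 0.08 (adjusted p = 0.583).

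Among the other lists, 17 zinc finger and bZIP genes gave 1 rise and 2 falls, 24 serine carboxypeptidase-like and other protease genes no rise and 3 falls, and 22 transport genes 1 rise and 3 falls. For all tested genes the shares were 5.27% rises and 4.05% falls. The iron list gave 1 fall among 5 tested genes, the heat shock and co-chaperone list 1 fall among 11 and the flavonoid list 1 rise among 5. The last 3 calls were lost with single arrays left out. SUFE2 (iron list) was lost without B1798 replicate 3 (adjusted p = 0.0581) and YLS5 (heat shock list) without B1798 replicate 1 (adjusted p = 0.0656). DFR (flavonoid list) was lost when any of 7 arrays was left out (adjusted p up to 0.111, without B1798 replicate 2). Lists were matched by symbol or locus, so a member such as YLS5 need not act in the process its list is named for. The metal transporter gene MTP11 rose by 0.43 ± 0.07 in the pooled contrast (adjusted p = 0.00137). This rise was 0.67 in iae2 and 0.19 in iae1, where it alone was not called (adjusted p = 0.21). The carboxypeptidase-like genes SCPL34 and scpl48 each fell by 0.44 (adjusted p = 0.00238 and 0.00261). BZIP53 changed by -0.60 in iae2 and by -0.09 in iae1. No shared call was found among 7 gibberellin, 5 bHLH, 10 calcium and MAP kinase, 6 meristem and leaf development or 9 MADS-box and flowering genes. None of the 3 genes of the root marker list had a shared call. Each other list had at most 2 tested genes, and SAG29, a SWEET sugar transporter gene of senescence, was the only shared call in those lists (-0.49, adjusted p = 0.0286). That call was lost without B1798 replicate 2, B1798 replicate 3 or iae1 replicate 1 (adjusted p up to 0.138, without B1798 replicate 3).

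**Figure D4:**
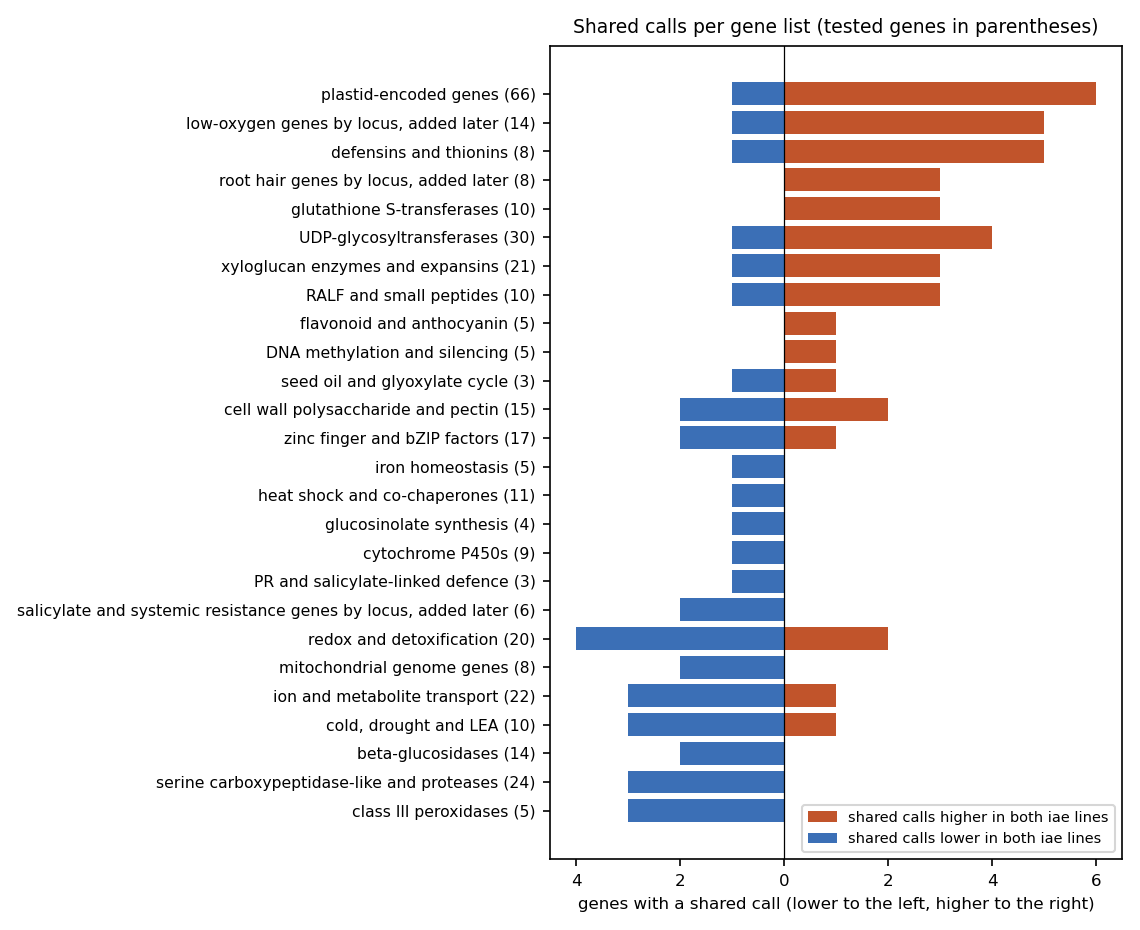
Number of genes with a shared call (x axis) in each gene list with at least 3 tested genes and at least 1 shared call, higher to the right and lower to the left, with the tested genes in parentheses. Defensins and thionins had 5 rises and 1 fall among 8 tested genes, and the class III peroxidases named by symbol had no rise and 3 falls among 5. Peroxidase genes known by locus only, among them the rise AT4G26010 and the fall AT2G37130, are not in that list. Over all tested genes 5.27% rose and 4.05% fell.

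Green tissue markers were bright on all arrays, and those meristem markers that were measured were dim. The summed signal of 10 green tissue markers lay between 19500 and 23193 on the iae arrays and between 19598 and 22327 on the B1798 arrays. Of 9 meristem markers 2 were on the array. LAS, a gene of axillary meristems, was tested and lay between 28.9 and 42.6, whereas CLV3, a stem cell gene, stayed between 2.2 and 8.3 and was below the filter. The sum of 4 measured root markers lay between 3371.6 and 4247.8 on the iae arrays and between 4040.6 and 4508.3 on the B1798 arrays, almost all of it from PYK10, a beta-glucosidase gene of roots and hypocotyls. The seed oil body gene OLEO3 lay below the filter, between 13.8 and 22.5.

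Of the root markers and root hair genes given here, those with a shared call all rose. Among the root markers AT5G17820, a peroxidase gene, averaged 78.9 ± 9.74 in iae1 and 69.1 ± 13.7 in iae2, against 50.7 ± 4.78 in B1798 (pooled log2 change 0.42, adjusted p = 0.0172). That call was not kept without B1798 replicate 2 or 3 (adjusted p = 0.0754 and 0.07). PYK10 changed by -0.21 (adjusted p = 0.0722), and the root hair expansin genes EXPA7 and EXPA18 by 0.24 and 0.19 (adjusted p = 0.23 and 0.218). A list of root hair genes by locus, drawn up after AT4G26010, AT5G04960 and other rises had been seen and leaving them out, had 3 rises and no fall among 8 tested genes (median 0.29). Over all tested genes 5.27% rose and 4.05% fell, but this short list was chosen with the leading rises known. AT4G30170, a peroxidase gene of that list, gave 270.5, 245.3 and 284.2 in iae1 and 197.5, 165.3 and 177.8 in iae2, against 155.1, 124.5 and 145.7 in B1798 (0.58 ± 0.08, adjusted p = 0.000257). AT2G47540 and AT5G06630, for which the probe set can cross-hybridise, were called at an adjusted p of 0.0172 and 0.0176, and neither call was kept without B1798 replicate 1 or 2 (adjusted p up to 0.121 and 0.0864). The part of root tissue in the changes above was not tested.

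A pooled call did not always stand for a shared change of similar size. AT2G25510 gave 38.9, 27.8 and 33.3 in iae1 and 2270.3, 2545.1 and 2375.5 in iae2, against 34.5, 52.3 and 54.8 in B1798. Its pooled log2 change of 2.46 (adjusted p = 1.37e-09) came from iae2, as iae1 differed from B1798 by -0.35 (adjusted p = 0.0973). AT1G66100, a thionin family gene, and ECS1, a secreted protein gene, were likewise high in iae2. AT1G66100 averaged 5.33 ± 0.493 in iae1 and 519 ± 35.1 in iae2, against 6.9 ± 3.8 in B1798, and ECS1 averaged 117 ± 16.9 in iae1 and 1731 ± 235 in iae2, against 180.5 ± 19.3 in B1798 (SD, n = 3 each). AT2G35750 averaged 1179 ± 67.6 in iae1 and 78.1 ± 6.14 in iae2, against 90.8 ± 21.1 in B1798. AT5G28110, a pseudogene whose probe set is open to cross-hybridisation, averaged 200.1 ± 34.3 in iae1 and 1.73 ± 1.23 in iae2, against 1.3 ± 0.2 in B1798. Of these 5 genes, the most unequal between the iae lines, only AT5G28110 met the rule for a shared call, because its mean in iae2 was above that in B1798 by 0.03 (log2, adjusted p = 0.904).

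Shared calls were spread over the genome. On the 5 nuclear chromosomes between 8.54% and 10.6% of the tested genes had a shared call. The 42 genes changed at least 1.5-fold in both lines included 0 pairs of direct neighbours that moved the same way, among 7686 tested genes placed in chromosome order. With so few genes among so many, neighbouring pairs are rare in any case, so this count cannot tell whether changed genes cluster. At or above the filter level on all iae arrays and below it on all B1798 arrays were 18 shared calls, and the reverse held for 4, M10 among them. Only shared calls were counted, and such probe sets passed the filter through the group in which they were high. The groups also differ in their number of arrays. These counts therefore cannot tell whether more genes were switched on than off in the iae lines. Of 62 genes with at least 2 tested probe sets, 13 had a shared call on any of them, 1 on all of them, and none had calls on opposite sides.

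The number of shared calls differed between models. With the GAPDH 3'/5' ratio of each array as a covariate, limma gave 374 shared calls, of which 316 (22% of the 1438) were in both sets. At the 1438 probe sets the median size of the change was 0.38 with the covariate and 0.41 without it, and the median SE was 0.14 with it and 0.087 without it. The direction was the same at 1433 of them. With the iae arrays fitted as 1 group of 6 against B1798, 295 shared calls were left, all of them among the 1438, because the difference between the iae lines then counts as spread. Without B1798 replicate 2 the number was 944, of which 876 were in both sets.

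Most of the leading genes passed these settings too. Among the 28 leading rises and falls, the calls on AT5G04960, AT5G63990, CHI, AT1G70270, AT5G52760 and AT1G34300 were lost with the GAPDH covariate (adjusted p between 0.0667 and 0.26), and that on BGLU28 was lost with the iae arrays as 1 group (adjusted p = 0.0714). The other 21 kept their call and direction under all settings tried that tested them. Of all 95 shared calls selected for description, including the list members, 55 were lost with the covariate and 50 with the iae arrays as 1 group, and 30 were lost when some single array was left out, so the counts of the lists rest on the fit with a mean per line and on all 9 arrays.

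**Figure D5:**
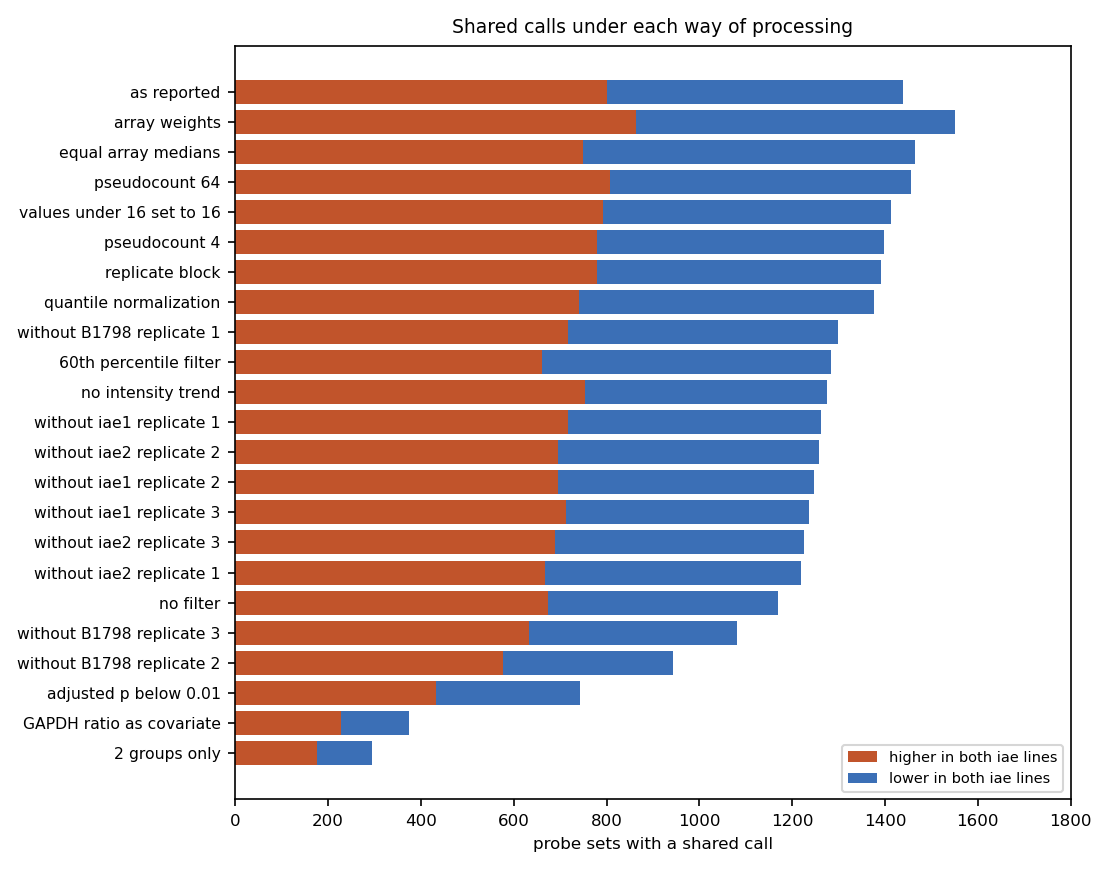
Number of shared calls (x axis), split into higher and lower, as reported and under each of 22 other ways of processing. The bar falls from 1438 as reported to 374 with the GAPDH ratio as a covariate and to 295 with the iae arrays as 1 group of 6.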

How the data were processed

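The arrays were Affymetrix ATH1, which read transcripts with probe sets. Per the labels, a phenol and SDS extraction gave total RNA, oligo-dT primed the cDNA, and the cRNA carried biotin. The values the authors deposited are linear intensity signals per probe set, and how probes were summarised is not given in the sources used here. Values ran from 0 to 8093, and the mean after trimming 2 percent at each end was 100 on every array. The number of arrays limits the precision.

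The 64 control probe sets of 22810 were left out. Fold changes are on the scale of log2(value + 16), without added normalization, and understate the change of dim probe sets. The model was run in limma 3.58.1 (R 4.3.3) on the 9 arrays, with 1 mean per line and a variance that follows intensity. The pooled contrast weights both iae lines equally. Contrasts were two-sided with Benjamini-Hochberg adjustment over 14404 probe sets, and limma is the source of every adjusted p of a gene. A call needed an adjusted p below 0.05, and a shared call also needed both line means on the same side of B1798.

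The probe annotation named 7853 tested probe sets with 1 gene, 292 with several and 6259 with none. Where a gene had several, the brightest stood for it in the lists. The 51 lists were matched by symbol or locus in a gene table of assembly TAIR10.1, and 39 of them had at least 3 tested genes. Named genes were the 14 largest rises and 14 largest falls by the smaller of the line changes, with 1 gene and no overlap of arrays, up to 4 shared calls per list, the brightest tested member of a list without any, the 5 calls most unequal between lines, and 2 unnamed probe sets per direction. Further list members are named as such. The members, lists and rules were chosen with earlier results of these data known, and 3 lists by locus were added after the leading genes had been seen. Root markers and root hair genes beyond the rule were named after their values were seen.

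Array quality was compared with exact permutation tests. On simulated data for the pooled contrast over 14404 probe sets, the fit recovered 12 of 70 changes of log2 0.3, 53 of 70 of log2 0.5 and 60 of 60 of log2 1, with 7 false calls. Alternatives changed the pseudocount, floor, normalization, filter, variance model, array weights, groups in the fit and threshold, added the GAPDH ratio or replicate number, and left out each array in turn. Figures were drawn with matplotlib 3.10.9.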

Additional observations from a re-analysis of the deposited data

Results flagged for a closer look

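The results below stood out because the change of a gene differed between iae2 and iae1 in the test of that difference itself (limma, adjusted p below 0.05 over 14404 probe sets). Values are iae2 minus iae1 on the log2 scale. For shared rises, a positive value means the larger rise was in iae2. It was 1.40 for PDF1.2, -0.36 for AT3G25930, -0.53 for ICL, -0.65 for AT5G66985, -0.52 for AT4G39675 and -0.34 for AT1G18980. Apart from PDF1.2, these rises were larger in iae1.

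For shared falls, a negative value means the deeper fall was in iae2. It was -0.37 for AT4G16260, -0.42 for AT2G37130 and -0.56 for ATPMEPCRD, and 1.07 for BGLU28, where iae1 fell further. The 5 most unequal calls had differences of 5.62 for AT2G25510, 4.65 for AT1G66100, 3.71 for ECS1, -3.67 for AT2G35750 and -3.60 for AT5G28110. No cause was tested. Groups of 3 arrays are too small for the test of single outlying samples, which was not applied.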

How the results depend on the processing

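No named gene called as reported or under a setting reversed its direction, and 27 of 95 named shared calls kept their call under all 22 settings that tested them. Shared calls numbered 1438 as reported (802 higher, 636 lower), 295 (176, 119) with the iae arrays as 1 group, 374 (228, 146) with the GAPDH ratio as covariate and 743 (433, 310) at an adjusted p below 0.01. Leaving out 1 array at a time gave 944 to 1299 shared calls, 577 to 717 higher and 367 to 582 lower, the lowest without B1798 replicate 2. Calls in each line alone, 419 as reported, numbered 122 with the GAPDH ratio, 168 at 0.01 and 248 to 399 with an array left out (269 without iae1 replicate 3). Differences between the lines, 619 as reported, numbered 196 with the GAPDH ratio, 319 at 0.01 and 469 to 587 with an array left out. With the iae arrays as 1 group neither of these has a value. Changes of at least 1.5-fold in each line, 101 as reported, numbered 180 at a pseudocount of 4, 188 with values under 16 set to 16, 29 at a pseudocount of 64 and 66 with the filter at the 60th percentile, and 96 to 123 with an array left out, so this count depends on how dim values are treated. Other settings kept each count within 1.5 times, and counting every probe set of a gene gave 82 calls over the lists in place of 81. The deviations of arrays with the same replicate number correlated between -0.15 and 0.14, and those with different numbers between -0.16 and 0.13. No pairing by number was seen, which does not exclude that samples were paired in growth or handling. With the replicate block there were 1391 shared calls (780 higher, 611 lower), of which 1326 were among the 1438.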
